A study of Mus musculus with 15 samples.

Results

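Secreted muscle growth factors and hormones outside the insulin-like growth factor axis were examined in C2C12 cells, a mouse myoblast line. They were 10 genes taken by symbol: Fgf21, Fgf7, Gdf15, Mstn, Gdf11, Fst, Fstl1, Hgf, Angpt1 and Ptn. All 10 were found among the 23352 genes measured, and 9 of them passed the filter for testing, as did 11945 genes in all (3 or more libraries at an FPKM of 1 or above). The gene below the filter was Mstn. RNA was sequenced from 15 libraries, 3 in each of 5 groups, and every group carried a lentiviral construct. The GFP control carried a vector that expresses GFP alone, and the NT shRNA control carried a short hairpin RNA with no target. MLX-WT cells carried wild-type MLX, MLX-DN cells a dominant-negative form of MLX, and MLX shRNA cells a hairpin against Mlx. Each construct had its own control, GFP for MLX-WT and MLX-DN and NT shRNA for MLX shRNA, and each was also read against the other control. No untransduced cells were among the groups, and the time after transduction, the culture medium and the number of hairpins against Mlx were not given in the sources used here. Whether the 3 libraries of a group were separate cultures is not stated, and p-values therefore describe only how far these libraries scatter, which may be technical error.

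MLX is a DNA-binding protein of the helix-loop-helix leucine zipper class that pairs with MondoA and ChREBP, binds E-box-like DNA elements and takes part in the transcriptional response to glucose. Muscle cells release proteins, often called myokines, that act on the same fibre, on neighbouring cells or on distant organs. FGF21 and GDF15 are hormones released under metabolic and mitochondrial stress. Myostatin, the product of Mstn, restrains muscle growth through activin receptors, GDF11 is its closest relative, and follistatin, the product of Fst, binds and blocks both. FGF7, HGF, angiopoietin-1 and pleiotrophin are heparin-binding or receptor kinase ligands that signal to epithelial cells, to satellite cells, to endothelial cells and to nerve and bone, respectively.

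The 250 bases before the transcription start are printed for the members of the set that hold CACGTG there, the E-box letters bound by MLX family dimers, because these letters are the promoter feature closest to the protein that was altered. Among the 8 members with an entry (10 promoters, RefSeq, build GRCm38.p6), CACGTG was found in Fgf21 and in 1 of the 2 promoters of Gdf15. Capitals mark CACGTG and, in Fgf21, the reverse-strand letters of the C/EBP-ATF element TGATGNAAT. Both genes lie on the minus strand, at chr7:45615491-45615740 for Fgf21 and chr8:70632096-70632345 for Gdf15, and the sequences read 5′ to 3′ along the gene.
Fgf21: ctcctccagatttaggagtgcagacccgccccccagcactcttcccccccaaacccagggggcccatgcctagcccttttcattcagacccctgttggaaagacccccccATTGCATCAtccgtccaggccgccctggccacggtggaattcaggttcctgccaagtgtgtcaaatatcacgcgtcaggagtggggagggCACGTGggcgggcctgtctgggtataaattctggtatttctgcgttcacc
Gdf15: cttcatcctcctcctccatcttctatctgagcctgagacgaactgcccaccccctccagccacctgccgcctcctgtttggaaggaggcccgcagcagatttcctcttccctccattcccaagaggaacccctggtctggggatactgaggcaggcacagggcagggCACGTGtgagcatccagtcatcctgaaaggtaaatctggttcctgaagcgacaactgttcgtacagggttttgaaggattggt

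In Fgf21 the CACGTG began 50 bases before the start and the TGATGNAAT match 140 bases before it, and CAGCTG, the E-box form preferred by myogenic factors, began at base 21 after the start. In Gdf15 the CACGTG began 83 bases before the start. Gdf11 held CAGCTG, 153 bases before its start, and the searched motifs were not found in the promoters of Fgf7, Fstl1, Hgf, Mstn and Ptn or in the other promoter of Gdf15. The searches covered both strands of 300 bases (250 before the start and 50 after it) and also included the palindromic SMAD element GTCTAGAC, which no member held. Over 32851 promoters of that length, CACGTG was held by 7.15%, CAGCTG by 16.3%, TGATGNAAT by 0.965% and GTCTAGAC by 0.213%. A match describes the letters only.

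Depth, estimated from the steps between low values, ran from 37.1 to 82.8 M fragments a library, and libraries of 1 group correlated at 0.998 to 0.999. Mlx, the targeted gene, was at 17.1 ± 0.516 FPKM (SD, n = 3, as in all group values) in the GFP control, 17.1 ± 0.778 in NT shRNA, 644 ± 11.6 in MLX-WT, 394 ± 8.76 in MLX-DN and 3.21 ± 0.645 in MLX shRNA cells, with reads of construct and native gene not told apart. The cells are labelled myoblasts. Over all libraries, 10 myoblast markers, with Pax3 under 0.1 FPKM throughout, summed to 1663 to 1955 FPKM. The 11 markers of differentiated myotubes summed to 7184 to 7301 FPKM in the GFP control and 5663 to 5832 in NT shRNA. Their sums were 8020 to 8173 in MLX-WT, 6940 to 7115 in MLX-DN and 7288 to 7815 in MLX shRNA cells. These sums are over different genes and do not give shares of cell types. Fibroblast markers (8 genes, with Thy1 and Tcf21 under 0.1 FPKM throughout) summed to 1490 to 1515 FPKM in the GFP control, 1295 to 1367 in NT shRNA, 1109 to 1127 in MLX-WT cells, 737 to 762 in MLX-DN cells and 398 to 404 in MLX shRNA cells. A mean of 1 FPKM or more was reached by 4 of the 8 with MLX shRNA and by 6 in every other group. Osteoblast markers summed to 10.2 to 11.4 FPKM in the GFP control and 15.5 to 17.6 in NT shRNA, against 64.8 to 75.4 with the 3 MLX constructs. Of these 6 genes, 2 had a mean of 1 FPKM or more in each control and 3 with each MLX construct, with Ibsp under 0.1 throughout. Adipocyte markers stayed at or below 3.61 FPKM and endothelial markers at or below 0.490, and macrophage markers summed to 1.03 to 2.38 FPKM but to 5.52 to 5.80 with MLX-DN. Only 1 of the 5 macrophage markers measured had a mean of 1 FPKM or more in each group, so these sums rest mainly on single genes. The part of these markers in the results was not tested. In bulk RNA, fewer cells of a type and less RNA per cell cannot be told apart.

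Fstl1 was the most abundant member per length and Mstn the least. The mean FPKM of Fstl1 over the 15 libraries exceeded that of 95.5% of tested genes, followed by Fgf21 at 78.9%, Fst at 76.4%, Angpt1 at 63.8%, Hgf at 50.6%, Gdf11 at 40.2%, Ptn at 40.1%, Gdf15 at 21.5% and Fgf7 at 14.5%. The widest range over groups belonged to Angpt1, whose highest group mean was 17.98 times its lowest, and the narrowest among tested members to Fstl1, at 1.92 times. MLX shRNA had the lowest mean for 6 members (Fst, Fstl1, Ptn, Angpt1, Fgf7 and Hgf), MLX-DN for Gdf11 and Gdf15, and the GFP control for Fgf21. No group was highest for more than 3 members: the GFP control led for Gdf11, Ptn and Angpt1, MLX-WT for Fgf21 and Fgf7, MLX-DN for Fst and Hgf, NT shRNA for Fstl1 and MLX shRNA for Gdf15. With the 5 groups of each gene put in order, 31 of 36 neighbouring pairs had library ranges that were apart and 5 overlapped, namely NT shRNA with MLX shRNA for Gdf11, GFP with MLX-DN for Gdf15, NT shRNA with MLX-DN for Angpt1 and for Fgf7, and GFP with MLX-WT for Hgf.

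**Figure D1:**
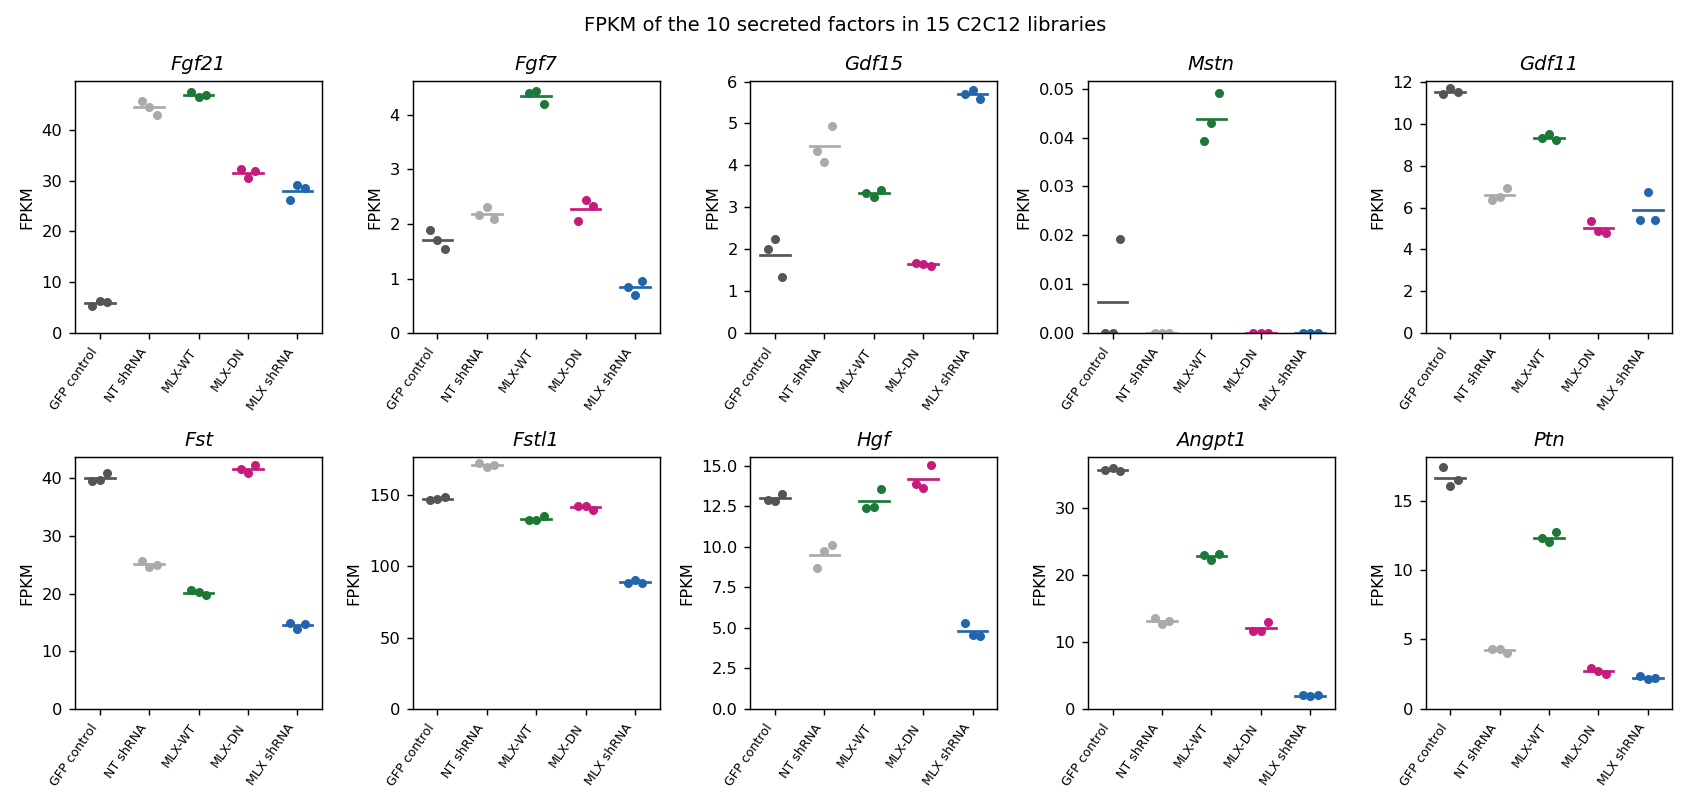
FPKM (linear axis from 0) of the 10 secreted factors in each of 15 libraries by group. Points are libraries and horizontal bars the mean of 3. Fgf21 sits at 5.34 to 6.42 in the GFP control and at 26.1 to 47.5 in the other groups, while Angpt1 falls to 1.90 to 2.07 with MLX shRNA.

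Fgf21, which encodes a hormone that raises fatty acid use and acts through a receptor made of an FGF receptor and beta-klotho, separated the GFP control from all other groups. Its FPKM in the 3 libraries was 5.34, 6.42 and 6.15 in the GFP control, 45.7, 44.6 and 42.9 in NT shRNA, 47.5, 46.5 and 46.8 in MLX-WT, 32.2, 30.5 and 31.9 in MLX-DN, and 26.1, 29.1 and 28.6 in MLX shRNA cells. The GFP libraries were lowest without overlap, the MLX-DN and MLX shRNA libraries lay in between, and NT shRNA and MLX-WT were highest. The level was 7.86-fold higher with MLX-WT than with GFP (log2 difference 2.62, SE 0.05 in every comparison of this gene, adjusted p 4.76e-16 by limma), and 5.28-fold higher with MLX-DN (2.08, adjusted p 2.82e-15). NT shRNA differed from GFP by nearly as much, 7.44-fold (2.54, adjusted p 3.94e-16). Against NT shRNA the MLX-WT difference was 0.08 (adjusted p 0.153, and 0.15 with adjusted p 0.0112 when libraries were centred on their medians). MLX-DN was 1.41-fold lower than NT shRNA (-0.47, adjusted p 3.78e-07) and MLX shRNA 1.59-fold lower (-0.63, adjusted p 8.59e-09). MLX-DN thus stood above one control and below the other, and so did MLX shRNA, which was 4.68-fold above GFP. Between the overexpression constructs, MLX-DN was 1.49-fold lower than MLX-WT (-0.55, adjusted p 4.95e-08).

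Gdf15, a stress hormone that reduces food intake through a brainstem receptor, was low in GFP and MLX-DN cells and highest with MLX shRNA. Its FPKM was 2.003, 2.25 and 1.34 in the GFP control, 4.35, 4.08 and 4.94 in NT shRNA, 3.35, 3.24 and 3.42 in MLX-WT, 1.68, 1.66 and 1.60 in MLX-DN, and 5.69, 5.79 and 5.59 in MLX shRNA cells. GFP and MLX-DN libraries overlapped, and the other 3 groups stood apart from them and from each other. MLX-WT was 1.79-fold above GFP (log2 difference 0.47, SE 0.07, adjusted p 1.18e-05) and 1.33-fold below NT shRNA (-0.27, adjusted p 0.00189), so its direction depended on the control. MLX shRNA was 1.28-fold above NT shRNA (0.25, adjusted p 0.00302) and 3.06-fold above GFP (1.001, adjusted p 1.06e-09), and NT shRNA was 2.39-fold above GFP (0.75, adjusted p 6.28e-08). MLX-DN was 2.71-fold below NT shRNA (-0.82, adjusted p 3.99e-08) and 2.03-fold below MLX-WT (-0.55, adjusted p 2.36e-06). Its difference from GFP was -0.08 (adjusted p 0.297). Without GFP library 3, the lowest of that group, the difference was -0.18 (adjusted p 0.00297), and it was 0.01 after median centring. Log2 differences here are of FPKM + 2, and with an offset of 0.1 the MLX-WT difference from GFP was 0.84 and that of MLX-DN from NT shRNA -1.38.

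Genes of the stress response known to accompany these hormones did not share 1 pattern. Of 24 listed genes (ATF4 and p53 pathway genes, the MLX partners Mlxip and Mlxipl, and GDF15 receptors), 20 were tested. Against GFP, 11 were higher and 7 lower with MLX-WT (median 0.12), and 6 were higher and 7 lower with MLX-DN (median -0.02, and 11 and 5 with median centring). With MLX shRNA against NT shRNA, 9 were higher and 9 lower (median -0.00270). Over all tested genes the medians of these comparisons were -0.05, -0.08 and -0.02, with 27.6%, 32.6% and 30.8% called higher and 42.7%, 48.8% and 39.3% called lower. Asns, which makes asparagine and is induced by ATF4, was at 37.7 FPKM in GFP, 67.7 in NT shRNA, 71.9 in MLX-WT, 71.5 in MLX-DN and 103 in MLX shRNA cells. Like Fgf21 it was lowest in GFP (log2 difference 0.81 for NT shRNA against GFP, adjusted p 6.94e-14), but unlike Fgf21 it was higher with MLX shRNA than with NT shRNA (0.59, adjusted p 5.18e-12). Nupr1, a small stress-induced chromatin protein, was higher with MLX-WT against GFP (0.80) and lower with MLX shRNA against NT shRNA (-0.64), with the same directions against the other control (0.38 and -0.22).

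Among transcripts of the stress factors, Atf4 and Ddit3 were named whatever their values. Atf3, Ddit4, Trp53 and Cebpb were each taken from a comparison where their p was among the 3 lowest of the list. Sizes are therefore set side by side only between the controls, a comparison not used for naming. Between NT shRNA and GFP, Ddit3 differed by 0.33, more than Trp53 (-0.22) and Cebpb (0.22) and less than Atf3 (0.60) and Ddit4 (-0.62). Atf4 was at 138 FPKM in GFP, 153 in NT shRNA, 153 in MLX-WT, 129 in MLX-DN and 145 in MLX shRNA cells, and its higher level with MLX-WT against GFP was 0.15 on the log2 scale (adjusted p 0.000298). Its lower level with MLX-DN (-0.10, adjusted p 0.00549) was no longer past the threshold after median centring (adjusted p 0.824), and that with MLX shRNA against NT shRNA (-0.08, adjusted p 0.0182) was lost as well (adjusted p 0.367). Ddit3, which encodes CHOP, was higher with MLX-WT against GFP (0.21, adjusted p 0.00144), and Trib3, an ATF4 target, was lower (-0.20). Against NT shRNA the Ddit3 difference with MLX-WT was -0.12, a call lost with median centring (-0.05, adjusted p 0.37). Atf3, another stress-induced factor, was higher with MLX-WT against GFP (0.90). Trp53 and Ddit4 were lower with MLX-DN against GFP (-0.66 and -0.99). Cebpb was at 22.5 FPKM in NT shRNA and 6.36 with MLX shRNA (-1.55, adjusted p 3.27e-11).

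The receptor side of GDF15 was sparse. Gfral, its receptor, was listed at 0 in every GFP and MLX-WT library and reached at most 0.0777 FPKM elsewhere. Ret, the co-receptor, was at 0.440 FPKM in GFP, 0.697 in NT shRNA, 0.959 in MLX-WT, 0.418 in MLX-DN and 1.36 in MLX shRNA cells. It was higher with MLX-WT against GFP (0.28, adjusted p 6.36e-07) and with MLX shRNA against NT shRNA (0.32, adjusted p 1.51e-07), and higher with each of these against the other control too (0.13 and 0.46).

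Fgf7, a paracrine growth factor for epithelial cells made by stromal cells, was higher with MLX-WT and lower with MLX shRNA against both controls. Its FPKM was 1.89, 1.71 and 1.55 in the GFP control, 2.17, 2.31 and 2.08 in NT shRNA, 4.40, 4.43 and 4.20 in MLX-WT, 2.06, 2.44 and 2.33 in MLX-DN, and 0.853, 0.706 and 0.959 in MLX shRNA cells. The MLX-WT libraries were the highest and the MLX shRNA libraries the lowest, each without overlap, and the controls and MLX-DN lay between. The MLX-WT level was 2.53-fold that of GFP (log2 difference 0.77, SE 0.04, adjusted p 3.34e-10) and 1.99-fold that of NT shRNA (0.60, adjusted p 8.54e-09). The MLX shRNA level was 2.61-fold below NT shRNA (-0.56, adjusted p 1.64e-08) and 2.04-fold below GFP (-0.39, adjusted p 6.48e-07). Of the 9 tested members, Fgf7 was the one with these directions against both controls. NT shRNA was 1.27-fold above GFP (0.17, adjusted p 0.00224), less than either effect. MLX-DN was 1.33-fold above GFP (0.20, adjusted p 0.000529) and 1.91-fold below MLX-WT (-0.57, adjusted p 1.39e-08), and its difference from NT shRNA was 0.03 (adjusted p 0.571, or 0.12 and 0.0251 with median centring). An offset of 0.1 widened the MLX-WT and MLX shRNA differences from their own controls to 1.30 and -1.29.

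More FGF signalling genes were lower than higher with both overexpression constructs against GFP, as was so for all tested genes as deposited. With median centring all tested genes split 4511 higher and 3775 lower for MLX-WT, and 5017 and 4660 for MLX-DN. Of 34 listed genes 24 were tested, and against GFP 6 were higher and 17 lower with MLX-WT (median -0.28 against -0.05 over all tested genes, of which 27.6% were higher and 42.7% lower). With MLX-DN 8 were higher and 16 lower (median -0.17 against -0.08 over all tested genes, of which 32.6% were higher and 48.8% lower). Against NT shRNA the MLX-DN split was 2 higher and 15 lower, beside 21% and 48.7% of all tested genes. It became 8 and 8 with median centring, where all tested genes split 4131 higher and 3710 lower. With MLX shRNA against NT shRNA, 10 were higher and 9 lower (median -0.02, and -0.02 over all tested genes, of which 30.8% were higher and 39.3% lower). Genes that FGF signalling is known to induce as its own brakes were among those with the lowest p, and they did not all move one way. Dusp6, a phosphatase for ERK, was at 25.3 FPKM in GFP, 18.6 in NT shRNA, 13.6 in MLX-WT, 16.6 in MLX-DN and 30.2 in MLX shRNA cells. Against GFP it was lower for MLX-WT (-0.81, adjusted p 2.28e-12) and MLX-DN (-0.55) and higher with MLX shRNA against NT shRNA (0.64, adjusted p 4.11e-11), and had these directions against the other control (-0.41, -0.15 and 0.24), the MLX-DN call there being lost with median centring (-0.06, adjusted p 0.111). Spry4, a Sprouty inhibitor, followed the same directions against GFP (-0.27 and -0.19), against NT shRNA for MLX shRNA (0.60), and against the other control (-0.20, -0.13 and 0.54, with the MLX-DN call again lost with median centring, adjusted p 0.22). Spry1 was at 12.8 FPKM in GFP, 7.79 in NT shRNA, 5.91 in MLX-WT, 5.62 in MLX-DN and 10.3 in MLX shRNA cells, so that MLX shRNA was above one control (0.33) and below the other (-0.26). Spry2, named after its values were seen, went the other way with the overexpression constructs: it was at 20.8 FPKM in GFP and higher at 27.4 with MLX-WT (0.36, adjusted p 2.71e-08) and at 23.5 with MLX-DN (0.16, adjusted p 0.000126). Like Dusp6 and Spry4, Spry2 was higher with MLX shRNA against NT shRNA (0.41) and against GFP (0.73).

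Receptors for the FGF members differed among themselves. Fgfr1, the FGF receptor with the highest FPKM of the 4 in every library, was at 30.9 FPKM in GFP and 35.2 in NT shRNA, and MLX shRNA lowered it to 21.6 (log2 difference from NT shRNA -0.66, adjusted p 5.31e-11). Its small differences with MLX-WT and MLX-DN against GFP (-0.13 and -0.14) lost the threshold after median centring (adjusted p 0.0732 and 0.119). Fgfr4 was at 2.15 FPKM in GFP, 5.81 in NT shRNA, 6.41 in MLX-WT, 6.27 in MLX-DN and 2.35 in MLX shRNA cells. As with Fgf21, NT shRNA stood well above GFP (0.91, adjusted p 1.18e-11), and the MLX shRNA difference was -0.84 against NT shRNA (adjusted p 4.4e-11) and 0.07 against GFP (adjusted p 0.136, or 0.12 and 0.0106 with median centring). Klb, which encodes the beta-klotho needed for FGF21 signalling, had group means of 0.0194 to 0.0547 FPKM and was not tested. Other genes of the list with the lowest p were Sdc1, a heparan sulphate proteoglycan (0.52 with MLX-DN against GFP), and Fgfrl1 and Fgfbp1, a decoy receptor and a carrier of FGFs (0.90 and 1.05 with MLX shRNA against NT shRNA).

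**Figure D2:**
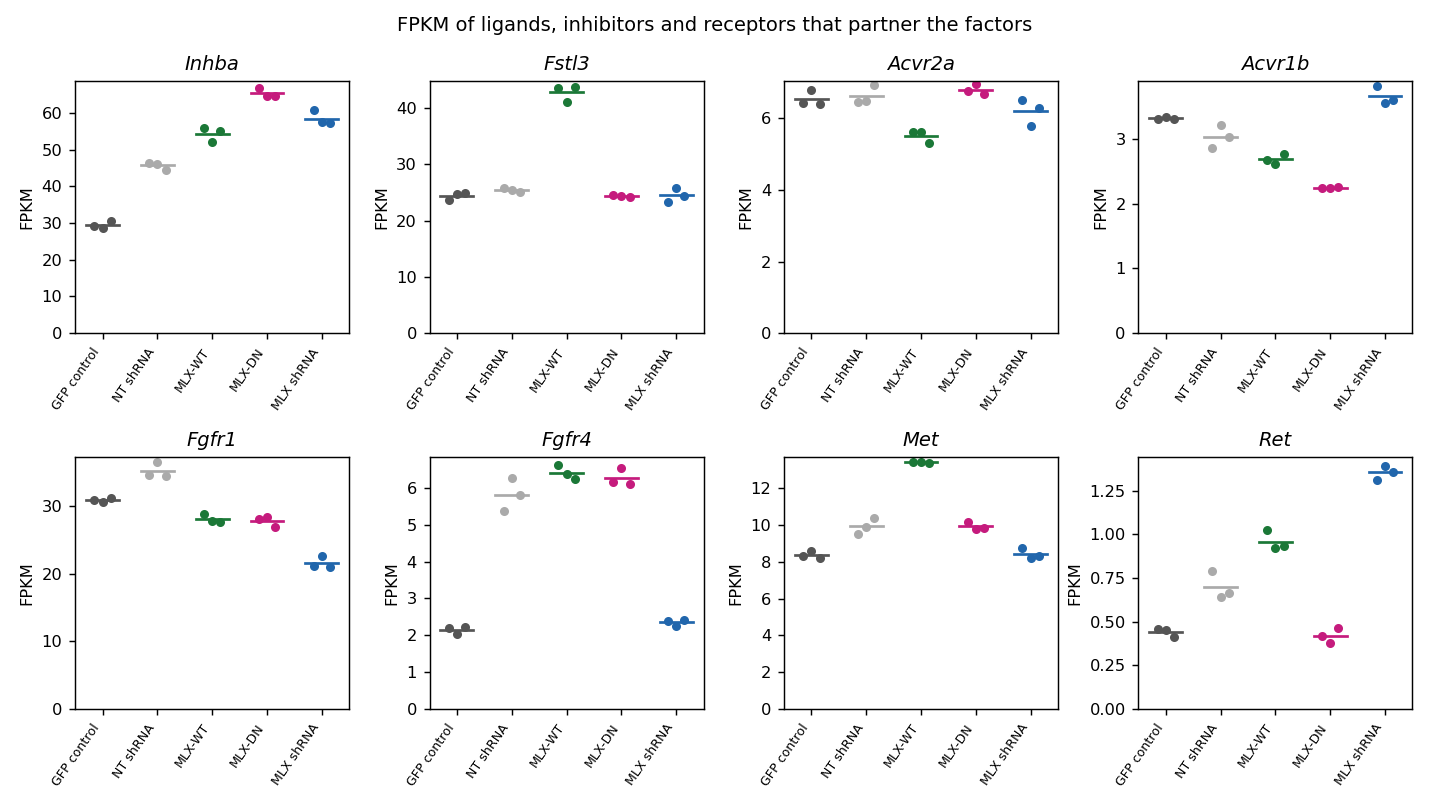
FPKM (linear axis from 0) of 8 ligands, inhibitors and receptors that partner the secreted factors, in 15 libraries by group. Points are libraries and horizontal bars the mean of 3. Fstl3 is high with MLX-WT alone (42.8 against 24.4 to 25.4 in the other groups), and Fgfr4 is low in the GFP control and with MLX shRNA (2.15 and 2.35).

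Mstn, the muscle growth inhibitor, was barely detected. It was listed at 0 in 11 of 15 libraries, among them every NT shRNA, MLX-DN and MLX shRNA library. The GFP libraries were at 0, 0 and 0.0193 FPKM, and the MLX-WT libraries at 0.0393, 0.0430 and 0.0491. These MLX-WT values correspond to an estimated 7.03, 9.06 and 7.04 reads, and the GFP value to 2.01 reads. With 3 reads as the floor, the other libraries could have shown Mstn from 0.0134 to 0.0299 FPKM, counting error only, so all 3 MLX-WT libraries were above the floor of every library. No test was made at this level.

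Gdf11, a TGF-beta family ligand close to myostatin in its mature part, was highest in GFP cells and lowest with MLX-DN. Its FPKM was 11.4, 11.7 and 11.5 in the GFP control, 6.37, 6.50 and 6.94 in NT shRNA, 9.31, 9.51 and 9.21 in MLX-WT, 5.34, 4.88 and 4.78 in MLX-DN, and 5.43, 6.75 and 5.39 in MLX shRNA cells. Only NT shRNA and MLX shRNA overlapped among neighbouring groups. MLX-DN was 2.31-fold below GFP (log2 difference -0.95, SE 0.05, adjusted p 1.32e-10), 1.87-fold below MLX-WT (-0.70, adjusted p 1.29e-08) and 1.32-fold below NT shRNA (-0.30, adjusted p 0.000133, and -0.18 after quantile normalization). MLX-WT was 1.23-fold below GFP (-0.26, adjusted p 0.000497) but 1.41-fold above NT shRNA (0.40, adjusted p 6.98e-06), and NT shRNA was 1.75-fold below GFP (-0.65, adjusted p 2.02e-08). MLX shRNA was 1.97-fold below GFP (-0.79, adjusted p 1.21e-09). Its difference from NT shRNA was -0.13 (adjusted p 0.0332). That call was lost in 8 of 24 alternatives, 4 of which leave out a library: NT shRNA library 2 (-0.14, adjusted p 0.0511), NT shRNA library 3 (-0.11, adjusted p 0.124), MLX shRNA library 1 (-0.10, adjusted p 0.142) and MLX shRNA library 3 (-0.09, adjusted p 0.155). Without MLX shRNA library 2, the highest of that group at 6.75, the difference was -0.21 (adjusted p 0.000138).

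Fst, whose product binds activins, myostatin and GDF11 and keeps them from their receptors, was at its highest in GFP and MLX-DN cells. Its FPKM was 39.5, 39.8 and 40.9 in the GFP control, 25.7, 24.6 and 24.9 in NT shRNA, 20.6, 20.3 and 19.7 in MLX-WT, 41.7, 41.0 and 42.3 in MLX-DN, and 14.8, 13.9 and 14.7 in MLX shRNA cells. All 5 groups were apart from each other, and MLX shRNA was the lowest. MLX-WT was 1.98-fold below GFP (log2 difference -0.92, SE 0.03, adjusted p 1.67e-13) and 1.24-fold below NT shRNA (-0.29, adjusted p 2.01e-07). MLX-DN was 2.06-fold above MLX-WT (0.98, adjusted p 1.1e-13) and 1.66-fold above NT shRNA (0.69, adjusted p 1.72e-11), and its difference from GFP was 0.05 (adjusted p 0.0763, or 0.15 and 0.000259 with median centring, and 0.048 without MLX shRNA library 2). MLX shRNA was 1.73-fold below NT shRNA (-0.71, adjusted p 3.87e-12) and 2.76-fold below GFP (-1.35, adjusted p 5.03e-16). More wild-type MLX and less Mlx thus both went with less Fst, against either control. NT shRNA was itself 1.60-fold below GFP (-0.64, adjusted p 9.9e-12).

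Fstl1, a secreted glycoprotein with a follistatin-like domain that is abundant in stromal and muscle cultures, was lowest with MLX shRNA. Its FPKM was 146, 147 and 149 in the GFP control, 173, 169.7 and 171 in NT shRNA, 133, 132 and 136 in MLX-WT, 142, 142 and 139.7 in MLX-DN, and 88.4, 90.7 and 88.6 in MLX shRNA cells. The groups did not overlap, though 4 of them lay within 132 to 173. MLX shRNA was 1.92-fold below NT shRNA (log2 difference -0.92, SE 0.02, adjusted p 2.02e-15) and 1.65-fold below GFP (-0.71, adjusted p 1.43e-14). MLX-WT was 1.10-fold below GFP (-0.14, adjusted p 8.5e-06, and -0.07 after median centring) and 1.28-fold below NT shRNA (-0.35, adjusted p 2.48e-10). MLX-DN was 1.04-fold below GFP (-0.06, adjusted p 0.0095), a direction that turned after median centring (0.03, adjusted p 0.136). MLX-DN was 1.21-fold below NT shRNA (-0.27, adjusted p 8.73e-09, and -0.18 after median centring) and 1.06-fold above MLX-WT (0.08, adjusted p 0.00134), and NT shRNA was 1.16-fold above GFP (0.21, adjusted p 6.76e-08).

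More genes of the myostatin and activin pathway were lower than higher with each construct against its own control. The same lean was seen over all tested genes as deposited, where it turned with median centring. The MLX-DN split of the list also changed with scaling. Of 37 listed genes 27 were tested. Against GFP, 5 were higher and 19 lower with MLX-WT (median -0.18 against -0.05 over all tested genes, 27.6% of them higher and 42.7% lower). With MLX-DN 7 were higher and 16 lower (median -0.11 against -0.08, with 32.6% of all higher and 48.8% lower), which became 11 and 12 with median centring. Against NT shRNA, 5 were higher and 16 lower with MLX shRNA (median -0.20 against -0.02, with 30.8% of all higher and 39.3% lower).

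Inhba, which encodes the activin A subunit that follistatin binds, was higher with all 3 MLX constructs against both controls. It was at 29.5 ± 0.971 FPKM in GFP, 45.7 ± 1.04 in NT shRNA, 54.3 ± 1.99 in MLX-WT, 65.3 ± 1.24 in MLX-DN and 58.5 ± 2.02 in MLX shRNA cells. The log2 difference from GFP was 0.84 for MLX-WT and 1.09 for MLX-DN, that of MLX shRNA from NT shRNA was 0.34, and against the other control they were 0.24, 0.50 and 0.94, the last 3 with adjusted p from 3.04e-13 to 9.11e-06. NT shRNA was above GFP (0.60). Fstl3, a second activin-binding inhibitor, was at 42.8 ± 1.57 FPKM with MLX-WT and at 24.4 to 25.4 in the other groups. Its MLX-WT difference was 0.76 against GFP (adjusted p 1.6e-11) and 0.71 against NT shRNA (adjusted p 4.94e-11), while NT shRNA against GFP was 0.05 (adjusted p 0.151). Fst and Fstl3, both antagonists of activin, thus differed in opposite directions with MLX-WT.

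Receptors and other regulators of this pathway moved less or with other groups. Acvr2a, an activin type II receptor, was lower with MLX-WT (-0.19 against GFP, adjusted p 0.000273, and -0.20 against NT shRNA). Acvr2b, the main myostatin receptor, was not tested and had means of 1.09 FPKM in GFP and 0.360 with MLX-DN, with the others at 0.684 to 0.847. Acvr1b, a type I receptor, was lower with MLX-WT and MLX-DN against GFP (-0.18 and -0.33) and higher with MLX shRNA against NT shRNA (0.17). Grem1, an antagonist of bone morphogenetic proteins, was at 15.6 FPKM in GFP, 27.6 in NT shRNA, 11.6 in MLX-WT, 37.7 in MLX-DN and 22.9 in MLX shRNA cells, and like Fst it was higher with MLX-DN than with MLX-WT (1.55, adjusted p 1.16e-14). Tgfb3 was at 72.1 FPKM in GFP and at 35.4 to 42.5 in the other 4 groups, the reverse of the split seen for Fgf21. Fbn1, a microfibril protein that holds latent TGF-beta, and Ski, a repressor of SMADs, were lower with MLX shRNA against NT shRNA (-1.56 and -0.59). Dcn, a proteoglycan that binds TGF-beta and myostatin and is also on the fibroblast marker list, fell from 17.02 FPKM in NT shRNA to 0.445 with MLX shRNA (-2.96, adjusted p 1.86e-18).

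Hgf, the growth factor that activates muscle satellite cells through the receptor MET, was lowest with MLX shRNA and lower in NT shRNA than in GFP cells. Its FPKM was 12.9, 12.8 and 13.2 in the GFP control, 8.69, 9.73 and 10.1 in NT shRNA, 12.4, 12.5 and 13.6 in MLX-WT, 13.9, 13.6 and 15.03 in MLX-DN, and 5.32, 4.55 and 4.49 in MLX shRNA cells. GFP and MLX-WT overlapped, and MLX shRNA was lowest without overlap. MLX shRNA was 1.99-fold below NT shRNA (log2 difference -0.76, SE 0.05, adjusted p 4.64e-09) and 2.71-fold below GFP (-1.15, adjusted p 1.31e-11). NT shRNA was 1.37-fold below GFP (-0.38, adjusted p 9.8e-06), so MLX-WT and MLX-DN were above NT shRNA (0.36, adjusted p 1.95e-05, and 0.49, adjusted p 9.54e-07). Against GFP, MLX-WT differed by -0.02 (adjusted p 0.767; 0.05 with median centring) and MLX-DN by 0.11 (adjusted p 0.0732). The MLX-DN difference from GFP passed the threshold in 5 alternatives, among them median centring (0.20, adjusted p 0.00332) and leaving out NT shRNA library 1 (adjusted p 0.0487) or MLX shRNA library 1 (adjusted p 0.0418). MLX-DN was 1.11-fold above MLX-WT (0.13, adjusted p 0.0439), a call lost in 11 of 24 alternatives. Leaving out 1 library was enough: GFP library 1 (adjusted p 0.053), 2 (adjusted p 0.0523) or 3 (adjusted p 0.0515), NT shRNA library 2 (adjusted p 0.0505), MLX-WT library 1 (adjusted p 0.135) or 2 (adjusted p 0.124), or MLX-DN library 1 (adjusted p 0.0561) or 3 (adjusted p 0.183).

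Angpt1, the activating ligand of the endothelial receptor TIE2, was the member with the largest difference on the log2 scale. Its FPKM was 35.7, 36.0 and 35.6 in the GFP control, 13.5, 12.7 and 13.2 in NT shRNA, 23.1, 22.3 and 23.1 in MLX-WT, 11.7, 11.7 and 12.98 in MLX-DN, and 2.0015, 1.90 and 2.07 in MLX shRNA cells. GFP was highest and MLX shRNA lowest, both without overlap, and MLX-DN overlapped NT shRNA. MLX shRNA was 6.61-fold below NT shRNA (log2 difference -1.92, SE 0.04, adjusted p 4.36e-16) and 17.98-fold below GFP (-3.24, adjusted p 4.51e-19). MLX-DN was 2.95-fold below GFP (-1.42, adjusted p 8.29e-15) and 1.89-fold below MLX-WT (-0.82, adjusted p 1.72e-11). MLX-WT was 1.57-fold below GFP (-0.61, adjusted p 4.37e-10) and 1.74-fold above NT shRNA (0.71, adjusted p 8.11e-11), and NT shRNA was 2.72-fold below GFP (-1.32, adjusted p 2.64e-14). The MLX-DN difference from NT shRNA was -0.10 (adjusted p 0.0162), and it was -0.01 (adjusted p 0.819) with median centring. The call was also lost without NT shRNA library 1 (-0.08, adjusted p 0.0704), MLX-DN library 1 (-0.08, adjusted p 0.0795) or MLX-DN library 2 (-0.08, adjusted p 0.0758).

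Ptn encodes pleiotrophin, a heparin-binding growth factor for neurites and bone cells, and it was highest in GFP and MLX-WT cells. Its FPKM was 17.4, 16.1 and 16.5 in the GFP control, 4.30, 4.31 and 3.996 in NT shRNA, 12.3, 11.99 and 12.7 in MLX-WT, 2.96, 2.76 and 2.53 in MLX-DN, and 2.33, 2.17 and 2.23 in MLX shRNA cells. The groups did not overlap. MLX-DN was 6.05-fold below GFP (log2 difference -1.97, SE 0.04, adjusted p 5.12e-16), 4.48-fold below MLX-WT (-1.59, adjusted p 1.48e-14) and 1.53-fold below NT shRNA (-0.39, adjusted p 3.34e-07). MLX shRNA was 1.87-fold below NT shRNA (-0.55, adjusted p 4.37e-09, or -0.88 with an offset of 0.1) and 7.41-fold below GFP (-2.13, adjusted p 1.04e-16). MLX-WT was 1.35-fold below GFP (-0.38, adjusted p 2.89e-07) and 2.93-fold above NT shRNA (1.21, adjusted p 3.97e-13). NT shRNA was 3.96-fold below GFP (-1.59, adjusted p 7.57e-15). The order GFP, MLX-WT, NT shRNA, MLX-DN, MLX shRNA was shared by the group means of Ptn and Angpt1. Both were lowest where the summed fibroblast markers were lowest, at 398 to 404 FPKM with MLX shRNA, as were Fst, Fstl1, Fgf7 and Hgf. Ptn and Angpt1 were lower in NT shRNA than in MLX-WT cells, while the marker sums were higher in NT shRNA (1295 to 1367 FPKM against 1109 to 1127). The part of those markers was not tested.

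Partners of HGF, angiopoietin and pleiotrophin went in both directions. Of 36 listed genes 23 were tested. Against GFP, 9 were higher and 10 lower with MLX-WT (11 and 7 with median centring; median -0.00327 against -0.05 over all tested genes), and 11 were higher and 8 lower with MLX-DN (median 0.09 against -0.08). Against NT shRNA, 6 were higher and 13 lower with MLX shRNA (median -0.13 against -0.02). Of all tested genes, 27.6%, 32.6% and 30.8% were higher and 42.7%, 48.8% and 39.3% lower in these comparisons. Met, the HGF receptor, was at 8.37 FPKM in GFP, 9.93 in NT shRNA, 13.4 in MLX-WT, 9.94 in MLX-DN and 8.42 in MLX shRNA cells, and MLX-WT was above both controls (0.57, adjusted p 1.69e-10, and 0.37, adjusted p 3.7e-08). Plau, the urokinase that can activate pro-HGF, was at 40.1 FPKM in GFP, 50.1 in NT shRNA, 62.8 in MLX-WT, 47.7 in MLX-DN and 131 in MLX shRNA cells (1.35 against NT shRNA, adjusted p 7.47e-17). Stat3, a signal carrier downstream of MET, was at 59.5 FPKM in NT shRNA and 16.6 with MLX shRNA (-1.72, adjusted p 4.05e-15).

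Angpt4, another ligand of TIE2, followed the directions of Fgf7 rather than those of Angpt1. It was at 7.67 ± 0.353 FPKM in GFP, 8.28 ± 0.197 in NT shRNA, 17.6 ± 0.748 in MLX-WT, 7.96 ± 0.135 in MLX-DN and 0.455 ± 0.0179 in MLX shRNA cells. MLX-WT was higher against GFP (1.02, adjusted p 5.01e-13) and NT shRNA (0.93, adjusted p 1.95e-12), and MLX shRNA was lower against NT shRNA (-2.07, adjusted p 1.06e-16) and GFP (-1.98, adjusted p 5.82e-17). Angpt1 and Angpt4 were thus both lowest with MLX shRNA, and with MLX-WT against GFP 1 was lower and the other higher. Tek, which encodes TIE2, had group means of 0.0248 to 0.0788 FPKM, Angpt2 of 0.309 to 0.403 and Mdk, the relative of pleiotrophin, of 0.123 to 0.281, and none was tested. Ptprz1, a pleiotrophin receptor, was listed at 0 in all 15 libraries. Among other genes of lowest p, Angptl4, a lipoprotein lipase inhibitor, was higher with MLX-DN against GFP (0.93) but lower against NT shRNA (-0.32). The proteoglycan Sdc4 was higher with MLX-WT against GFP (0.52), and its difference from NT shRNA was -0.04 (adjusted p 0.162). Nrp1 and Sdc3, co-receptors for these ligands, were lower with MLX-DN against GFP (-0.52 and -0.89). For Angptl4, Sdc4, Nrp1 and Sdc3, NT shRNA itself differed from GFP in the same direction (1.26, 0.56, -0.22 and -0.86).

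Other secreted factors of muscle are given for comparison. Of 49 listed symbols 47 were in the table and 35 were tested. The list held old and new symbols of the same gene, Figf with Vegfd and Fam132b with Erfe. Against GFP, 11 were higher and 18 lower with MLX-WT (median -0.11 against -0.05 over all tested genes), and 15 were higher and 14 lower with MLX-DN (18 and 10 with median centring; median -0.00162 against -0.08). Against NT shRNA, 11 were higher and 19 lower with MLX shRNA (median -0.18 against -0.02), beside the shares of all tested genes given for the partner list. Igf2, an insulin-like growth factor that promotes differentiation, was at 173 FPKM in GFP, 125 in NT shRNA, 142 in MLX-WT, 67.7 in MLX-DN and 32.2 in MLX shRNA cells, the same order of group means as Ptn and Angpt1. Vegfa, the vascular growth factor, was higher with MLX-DN against GFP (0.85), and Ctgf was higher there too (0.72) but lower with MLX-WT (-0.57). Ctgf was at 130 FPKM in GFP, 269 in NT shRNA, 87.1 in MLX-WT and 216 in MLX-DN cells. With MLX-DN it was thus above GFP and below NT shRNA. Vegfa was at 27.8 FPKM in GFP, 44.0 in NT shRNA and 51.7 in MLX-DN cells. Pdgfb and Fndc5, the irisin precursor, were lower with MLX-WT against GFP (-1.07 and -0.77). Csf1 and Igf1 were lower with MLX shRNA against NT shRNA (-1.28 and -1.10).

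**Figure D3:**
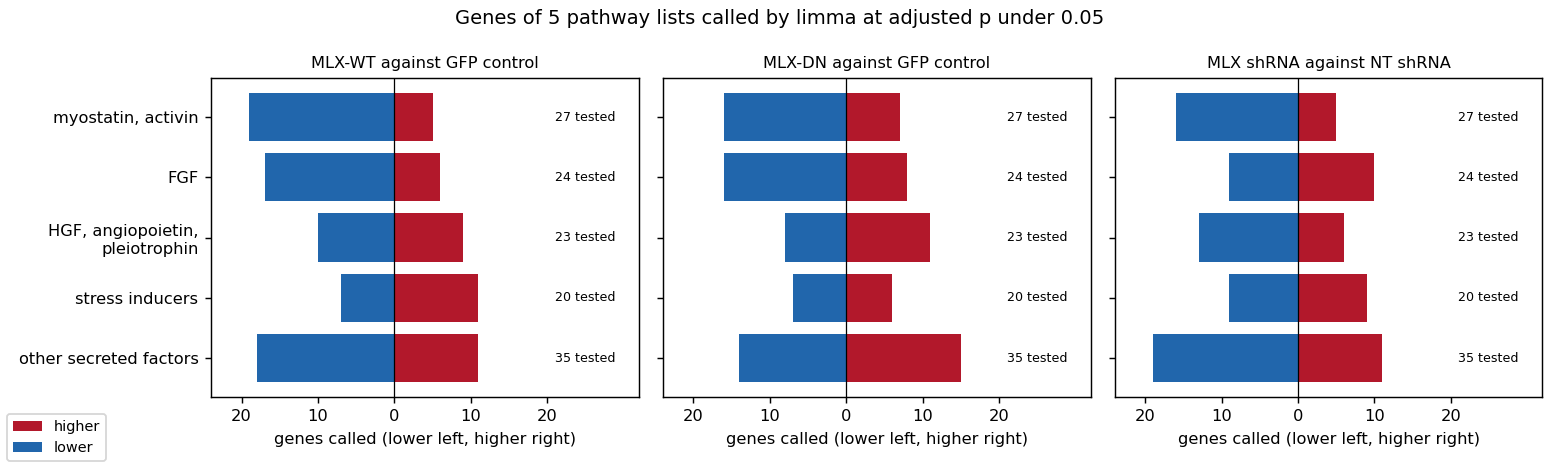
Number of genes in 5 pathway lists called higher (right) or lower (left) by limma at an adjusted p under 0.05, for each MLX construct against its own control. The myostatin and activin list has more lower than higher genes in all 3 comparisons (19 against 5, 16 against 7 and 16 against 5) as tested, and the MLX-DN split becomes 12 against 11 with median centring. Of all tested genes 42.7%, 48.8% and 39.3% were lower and 27.6%, 32.6% and 30.8% higher.

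Most tested genes differed in every comparison made, so the count of members called is read against that share. MLX shRNA was not compared with MLX-WT or MLX-DN. With MLX-WT against GFP, 8 of 9 tested members were called, 3 higher and 5 lower, where 70.3% of all tested genes were called (27.6% higher and 42.7% lower). The libraries did not overlap for 8 of the 9, and for 76.4% of tested genes. With MLX-DN against GFP, 6 of 9 were called, 2 higher and 4 lower (4 and 3 with median centring), where 81.4% of tested genes were called, 32.6% higher and 48.8% lower. Here 8 of the 9 did not overlap, beside 83.6% of tested genes. MLX shRNA against NT shRNA gave 9 of 9, with Gdf15 higher and 8 lower, where 70.1% of tested genes were called, 30.8% higher and 39.3% lower, and 8 of the 9 did not overlap, beside 69.4% of tested genes. The share of members called was above the background for MLX-WT and MLX shRNA and below it for MLX-DN. With 9 members and most genes called, no test of these gaps was made. Over the 9 members the median log2 difference against the own control was -0.14 for MLX-WT. It was -0.06 for MLX-DN and -0.63 for MLX shRNA, where the median over all tested genes was -0.05, -0.08 and -0.02.

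Of the 8 members called with MLX-WT against GFP, 4 turned direction against NT shRNA, 3 were called in the same direction and Fgf21 stayed above the control (0.08) without passing the threshold. With MLX-WT against NT shRNA 8 of 9 members were called, 5 higher and 3 lower, where 69.9% of tested genes were called (25.7% higher and 44.3% lower). All 9 were apart, beside 73.8% of tested genes. Fgf7 was higher and Fst and Fstl1 were lower against both controls. Gdf11, Ptn and Angpt1 were lower than GFP and higher than NT shRNA, and Gdf15 was higher than GFP and lower than NT shRNA. With MLX-DN against NT shRNA 8 of 9 were called, 2 higher and 6 lower (3 and 5 with median centring), where 69.7% of tested genes were called (21% higher and 48.7% lower). The libraries were apart for 7 members, beside 73% of tested genes. Gdf11, Ptn and Angpt1 were lower than both controls with MLX-DN, the Angpt1 call against NT shRNA being the one lost with median centring, and Fstl1 was lower as well except that its direction against GFP turned with median centring. MLX shRNA against GFP gave 9 of 9, 2 higher and 7 lower, where 80% of tested genes were called (37.3% higher and 42.8% lower), and all 9 were apart, beside 79.8% of tested genes. Angpt1, Ptn, Hgf, Fst, Fstl1, Fgf7 and Gdf11 were lower and Gdf15 higher with MLX shRNA against both controls, the Gdf11 call against NT shRNA being the one that did not hold in all alternatives, and Fgf21 was lower than NT shRNA and higher than GFP. These pairs of comparisons share the construct's libraries.

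The 2 controls differed from each other in all 9 tested members, 4 higher and 5 lower in NT shRNA, where 74.1% of tested genes were called (37% higher and 37.1% lower). All 9 were apart, beside 77.2% of tested genes. On the log2 scale the controls differed by more than MLX shRNA did from NT shRNA for Fgf21, Gdf15, Gdf11 and Ptn, and by less for Fst, Fstl1, Hgf, Angpt1 and Fgf7, and these gaps themselves were not tested. MLX-DN against MLX-WT, a comparison that uses neither control, also called 9 of 9, where 72.1% of tested genes were called (33.2% higher and 38.9% lower), with all 9 apart, beside 76.6% of tested genes. Fst, Fstl1 and Hgf were higher with MLX-DN, and Fgf21, Gdf15, Gdf11, Ptn, Angpt1 and Fgf7 were lower.

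**Figure D4:**
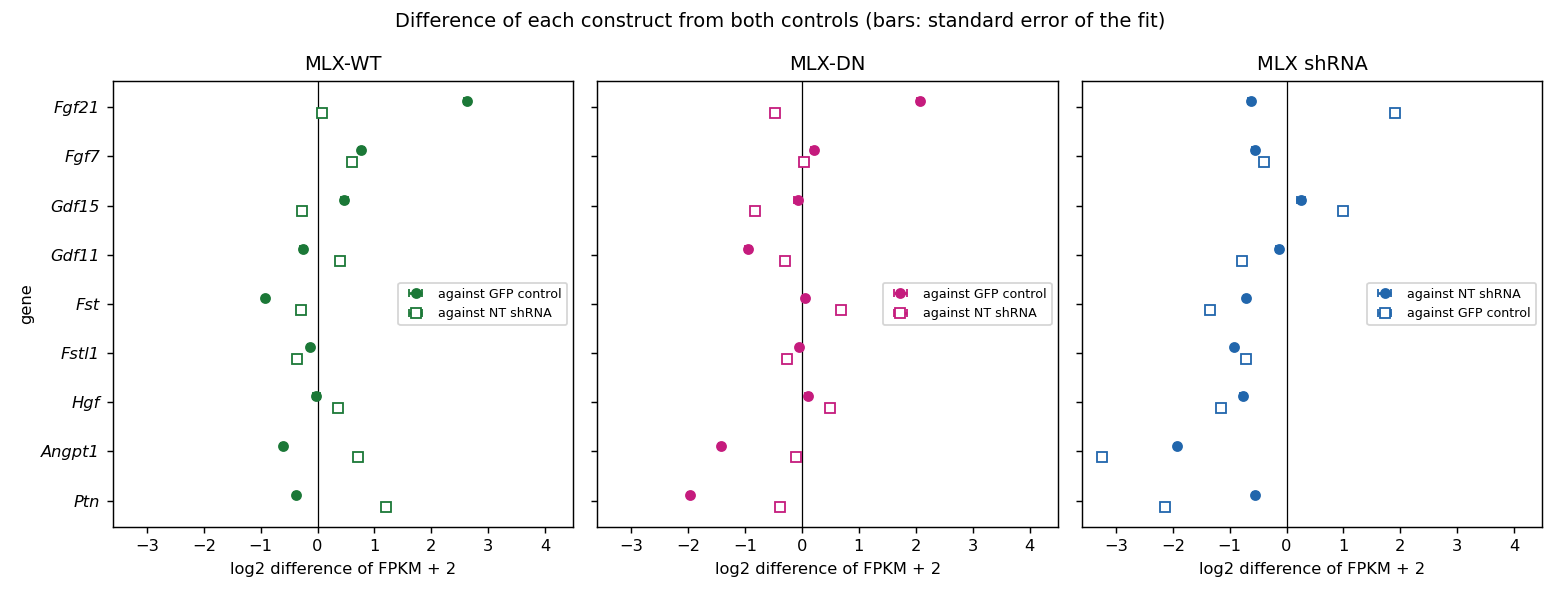
Log2 difference of FPKM + 2 of 9 secreted factors for each MLX construct against its own control and against the other control; bars are the standard error of the fit. For MLX-WT the points of Ptn, Angpt1, Gdf11, Gdf15 and Hgf lie on opposite sides of 0 for the 2 controls (the Hgf difference from GFP was not called), and for MLX shRNA both points lie below 0 for 7 of the 9 factors.

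The direction of calls over all genes depended on scaling. As deposited, 3300 genes were higher and 5100 lower for MLX-WT against GFP, 3892 and 5831 for MLX-DN against GFP, and 3674 and 4695 for MLX shRNA against its own control. With libraries centred on their medians these became 4511 and 3775, 5017 and 4660, and 4675 and 3716. For the other comparisons, the splits as deposited and after centring were 3967 and 4651 against 4382 and 4290 for MLX-DN against MLX-WT, 3067 and 5288 against 4230 and 3643 for MLX-WT against NT shRNA, 2510 and 5821 against 4131 and 3710 for MLX-DN against NT shRNA, 4450 and 5108 against 5135 and 4448 for MLX shRNA against GFP, and 4421 and 4433 against 4362 and 4491 for NT shRNA against GFP.

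The genes whose deposited values followed each member most closely over the 15 libraries were found by Pearson's r, as a description over libraries that fall into 5 groups. For Fgf21 they were Fhl1 (r 0.985), Lpar1 (0.985) and Gpr56 (0.981), and Gpr56 was at 6.64 FPKM in GFP and 19.1 to 22.0 in the other groups. Gdf15 was followed by Sox9 (0.972), Pa2g4 (0.967) and Shb (0.966), and Fgf7 by Akr1c14 (0.983), Fam162a (0.981) and Dync1li2 (0.977). Akr1c14 was at 2.34 FPKM with MLX-WT, 0.0797 with MLX shRNA and 0.757 to 0.976 in the other groups, the pattern of Fgf7 with a wider range. Closest to Gdf11 were Akr1c13 (0.992), Ncaph2 (0.986) and Prpf19 (0.983), to Fst Memo1 (0.981), Zbtb18 (0.973) and Dcaf6 (0.955), and to Fstl1 Trabd2b (0.991), Klhl2 (0.989) and Itga11 (0.989). Itga11, a collagen receptor subunit, was at 5.73 FPKM in NT shRNA and 0.321 with MLX shRNA. Hgf was followed by Tmem87b (0.976), Ccng1 (0.972) and Rpl4 (0.971). Angpt1 was followed by S100a4 (0.996), Nrp2 (0.994) and Fam20a (0.993), and S100a4, a calcium-binding protein common in fibroblasts, was at 2016 FPKM in GFP and 571 with MLX shRNA. Ptn had the closest companions, Glrb (0.997), Rab3il1 (0.996) and Setbp1 (0.995), and Rab3il1 was at 7.85 FPKM in GFP, 5.84 with MLX-WT, 1.63 in NT shRNA, 0.994 with MLX-DN and 0.789 with MLX shRNA.

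Some of the members' exons overlap those of other genes in the reference annotation. Of its exon bases, Angpt1 shares 14.2% with Gm17473 and Fst 2.51% with Gm47040, both on the opposite strand, and Hgf shares 6.74% with Gm43489 on the same strand. Mlx shares 19.3% with Psmc3ip on the opposite strand. Whether the counting used strand was not given in the sources used here, so reads of these overlaps cannot be assigned with certainty, and the other members of the set had no such overlap.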

How the data were processed

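RNA of 15 C2C12 libraries was measured by poly(A)-selected sequencing with a stranded kit, per the labels' protocols. The submitters' processing notes name CASAVA, TopHat2, STAR and the build mm9, with no role or version. For 23352 genes the authors deposited FPKM (fragments scaled by transcript length and depth) on a log2 scale. The minimum of each library was exactly 1, so values were read as log2(FPKM + 2). Every column belonged to a labelled sample.

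Genes that reached an FPKM of 1 in 3 or more of 15 libraries were tested with limma 3.58.1 (R 4.3.3). The fit took the log2 values as deposited, gave each of the 5 groups a mean and used a variance trend. Tests were two-sided with Benjamini-Hochberg adjustment over all tested genes and a threshold of 0.05. Differences are of log2(FPKM + 2), which understates changes of low genes, and folds are ratios of mean FPKM. Groups were called apart where their 3 libraries did not overlap.

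Counts were not analysed here, and depth was read from the low FPKM values, of which 60.7% to 64.7% lay within 0.05 of a whole read, against at most 29.2% at depths 3% to 10% away. At 2000 bases a floor of 3 reads is 0.0181 to 0.0405 FPKM, counting error only. No count model was used.

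The members and gene lists were chosen with earlier results of these data known. Named genes were all members, Mlx, set receptors and partners, the 3 tested genes of lowest p per list in each construct's own comparison, and for each member the 3 genes of highest correlation with a mean FPKM of at least 2 in a group, predicted genes left out. The list counts have no set test. Exon overlaps came from GENCODE annotation of GRCm38, and promoters from RefSeq on GRCm38.p6 (250 bases before the start and 50 after it). No gene coordinates on mm9 are given. Protein sequences were not analysed here. Alternatives were offsets of 1 and 0.1, no filter, an FPKM filter of 5, median centring, quantile normalization, no variance trend, 2 groups only, a block for replicate number, and each library left out in turn. The fit was tested on simulated data. Python 3.11.15 with pandas 2.3.3 was used for tables.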

Additional observations from a re-analysis of the deposited data

How the results depend on the processing

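The counts of members called stayed within 1.5 times of the reported ones in all 192 alternatives, and over the left-out libraries they ran from 6 to 7 for MLX-DN against GFP, 8 to 9 for MLX shRNA against NT shRNA and for MLX-DN against MLX-WT, and 7 to 8 for MLX-DN against NT shRNA, with no other count moving. Of the members' log2 differences, 1677 alternatives kept direction and call, 25 lost the call, 12 gained it and 6 turned direction. The 6 were Hgf for MLX-WT against GFP (0.0497 with median centring, 0.0316 with quantile normalization, and -0.056 to 0.00214 over the left-out libraries, positive without MLX-WT library 1), Fstl1 for MLX-DN against GFP (0.0309 with median centring) and Gdf15 for MLX-DN against GFP (0.0141 with median centring and 0.0344 with quantile normalization), where the reported differences were -0.02, -0.06 and -0.08. Of these, the Fstl1 difference was the one past the threshold. Of the list counts, 951 alternatives stayed within 1.5 times and 9 did not, all 9 with the FPKM filter of 5, which tests fewer genes and drops Fgf7. Same-numbered libraries deviated together with r from -0.09 to 0.18, over 0.1 in 4 of 30 pairs, and 28 of 60 correlated best with their own number. The numbers were not taken as pairs in the reported fit, though these values do not settle whether they were. With the replicate block the members called were 8 for MLX-WT and 6 for MLX-DN against GFP, 9 for MLX shRNA against NT shRNA, 9 between controls and 9 for MLX-DN against MLX-WT, as without it. No difference was tested for Mstn, Gfral, Klb and Tek, whose group means were at most 0.0788 FPKM.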
